A study of Mus musculus with 32 samples.

Results

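Acyl-CoA thioesterases (the Acot genes) were followed in 32 mouse livers, 1 Affymetrix expression array per mouse. The family was taken as 8 listed genes, Acot1, Acot2, Acot3, Acot4, Acot7, Acot8, Acot12 and Acot13, among 22180 genes tested. Genes were listed by family name, and the probe set of a gene was chosen by its mean level across the 32 livers, the highest being read; that mean is the measured value the choice used. Of the 8 genes, 7 had a value. Acot8, a peroxisomal thioesterase, is not analysed here, because its annotated probe set also belongs to Snx21. The list was drawn up with results of these arrays known, so counts over its members describe the genes and are not independent evidence. No measured member was lost to a filter on low values.

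Livers came from wild-type male C57BL/6NTac mice aged 14 weeks, all fasted for 10 h and then gavaged. There were 9 palm oil clamped, 7 control clamped, 9 palm oil basal and 7 control basal mice. Palm oil mice received 2 g/kg of the oil, which is rich in palmitate, and control mice received water. Basal mice were killed with isoflurane 6 h after the gavage. In clamped mice, a hyperinsulinemic-euglycemic clamp was begun 6 h after the gavage: glucose was given to keep glycaemia level under an insulin infusion of 15 pmol/kg/min, which followed 110 min of a glucose tracer. Clamped mice also had a jugular catheter placed 6 to 7 days earlier, were killed with ketamine and xylazine, and gave their livers later after the gavage. Their animal numbers ran from 15 to 32, against 33 to 52 in basal mice. Insulin, surgery, anaesthetic, time since the gavage and animal number therefore cannot be told apart in the clamped minus basal difference.

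Acyl-CoA thioesterases split the activated form of a fatty acid, acyl-CoA, into the free acid and coenzyme A. They act opposite to acyl-CoA synthetases, and between them the enzymes of the cytosol, mitochondria and peroxisomes set how much acyl-CoA is at hand for oxidation, lipid synthesis and signalling. In mouse liver several members, Acot1 above all, are known targets of PPARA, the nuclear receptor that switches on fatty acid oxidation in fasting. Type I members (Acot1 to Acot6) share an alpha/beta-hydrolase fold, and type II members (such as Acot7, Acot8, Acot12 and Acot13) a hotdog fold.

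The type I genes lie side by side on mouse chromosome 12 in the order Acot2, Acot1, Acot4, Acot3, Acot5 and Acot6 in the reference gene table, with no other protein-coding gene between them. They arose by duplication and resemble each other in their coding sequence, and whether a probe set also takes up signal of a neighbouring gene was not tested. The promoters of the 4 measured chromosome 12 members, and of Acot12 on chromosome 13, are shown because these 5 genes were the ones that fell under the clamp. Each is the 250 bases before the annotated start, 5′ to 3′, from RefSeq, build GRCm38.p6. Capitals mark CCAAT and AGGTCA, the core site of many nuclear receptors, on either strand (ATTGG and TGACCT on the other strand).
Acot1, chr12:84009252-84009501, plus strand: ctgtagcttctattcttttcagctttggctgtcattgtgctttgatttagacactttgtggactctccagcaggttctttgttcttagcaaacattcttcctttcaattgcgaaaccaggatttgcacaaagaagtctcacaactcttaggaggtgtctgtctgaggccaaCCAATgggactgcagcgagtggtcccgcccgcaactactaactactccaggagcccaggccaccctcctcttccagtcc
Acot2, chr12:83987611-83987860, plus strand: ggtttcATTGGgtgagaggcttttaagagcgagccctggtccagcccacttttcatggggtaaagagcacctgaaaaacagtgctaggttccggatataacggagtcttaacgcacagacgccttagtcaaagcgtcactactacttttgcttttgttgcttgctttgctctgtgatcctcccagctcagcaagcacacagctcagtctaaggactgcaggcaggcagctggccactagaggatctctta
Acot3, chr12:84051894-84052143, plus strand: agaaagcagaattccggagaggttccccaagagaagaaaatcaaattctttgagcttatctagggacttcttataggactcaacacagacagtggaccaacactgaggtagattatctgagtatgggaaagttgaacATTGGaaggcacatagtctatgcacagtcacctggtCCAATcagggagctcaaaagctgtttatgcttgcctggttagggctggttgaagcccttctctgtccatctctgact
Acot4, chr12:84038129-84038378, plus strand: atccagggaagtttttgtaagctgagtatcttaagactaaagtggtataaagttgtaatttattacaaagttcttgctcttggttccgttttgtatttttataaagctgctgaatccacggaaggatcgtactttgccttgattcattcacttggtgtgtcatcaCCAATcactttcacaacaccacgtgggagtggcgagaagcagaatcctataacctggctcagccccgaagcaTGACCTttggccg
Acot12, chr13:91741271-91741520, plus strand: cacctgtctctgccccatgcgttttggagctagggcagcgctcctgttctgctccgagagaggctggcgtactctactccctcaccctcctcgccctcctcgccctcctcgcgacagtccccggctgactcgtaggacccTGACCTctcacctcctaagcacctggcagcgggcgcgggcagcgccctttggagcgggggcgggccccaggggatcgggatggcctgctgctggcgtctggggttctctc

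CCAAT was present in all 4 chromosome 12 promoters and not in that of Acot12, while 34.2% of 27025 promoters of this length hold it. AGGTCA occurred in Acot4 and Acot12 only among these 5, against 14.0% of all promoters. The direct repeat of AGGTCA with 1 base between the copies, of the kind that PPARA and HNF4A bind, was searched on both strands and had no match in the 5 windows, and 0.0407% of all promoters hold it. That says only that these letters are not in these 250 bases. The FOXO-type motif GTAAACA had no match either, against 3.12% of all promoters, and the E-box CACGTG matched in Acot4, against 5.93%. Aligned end to end, the 4 chromosome 12 promoters were 49.5% to 51.9% identical, and each of them was 44.4% to 49% identical to that of Acot12. Pairs on different chromosomes reached the same values, such as Acot1 and Acot8 at 51.6% and Acot7 and Acot12 at 50.3%.

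Expression is given as log2 values, so that 1 unit is a doubling of signal, and dim signals are compressed. The median of an array was 1.65 to 1.77, and precision is limited by the number of arrays. The 8 hepatocyte markers checked, among them albumin, averaged 10.10 to 10.23 per array in palm oil clamped mice, against 9.71 to 10.09 in palm oil basal mice, with no overlap. In control mice the averages were 10.11 to 10.24 when clamped, against 9.77 to 10.14 when basal. Hepatocyte markers rose under the clamp for 2 of 8 genes in palm oil and 3 of 8 in control mice, and so did 2 of 8 and 3 of 8 Kupffer cell markers, with none of either list falling. Averages of 9 pancreatic acinar markers exceeded 6 log2 units on 2 palm oil clamped, 1 control clamped, 5 palm oil basal and 4 control basal arrays. Values were less spread on the 7 basal arrays whose animals had numbers of at least 44 (3 palm oil, 4 control), with an interquartile range of 2.44 to 2.54, against 2.64 to 2.85 on clamped and 2.72 to 2.96 on the other 9 basal arrays. Of the 10 neutrophil markers 5 rose in clamped mice of either gavage, with array averages of 2.49 to 3.27 in clamped and 1.67 to 2.39 in basal mice. The part of these differences in the results was not tested, beyond the values given beside them.

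The main question here was how the thioesterases responded to the clamp. In palm oil mice 5 of the 7 measured members fell and none rose, and in control mice the same 5 fell: Acot1, Acot2, Acot3, Acot4 and Acot12. Of all 22180 genes, 7.57% passed in palm oil mice (3.76% higher, 3.80% lower) and 8.75% in control mice (4.66% higher, 4.09% lower), and 2.26% fell in both. Repeated quantile normalization shifted the control split to 9.48% passing with 5.51% lower, and the same 5 members fell. The median difference of the members was -0.85 in palm oil and -0.81 in control mice (log2), against -0.02 over all genes in either comparison. Tests were made with limma on all 32 arrays, with p-values adjusted over all genes and a threshold of 0.05. In bulk liver, fewer cells of a type and less RNA per cell cannot be told apart.

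**Figure D1:**
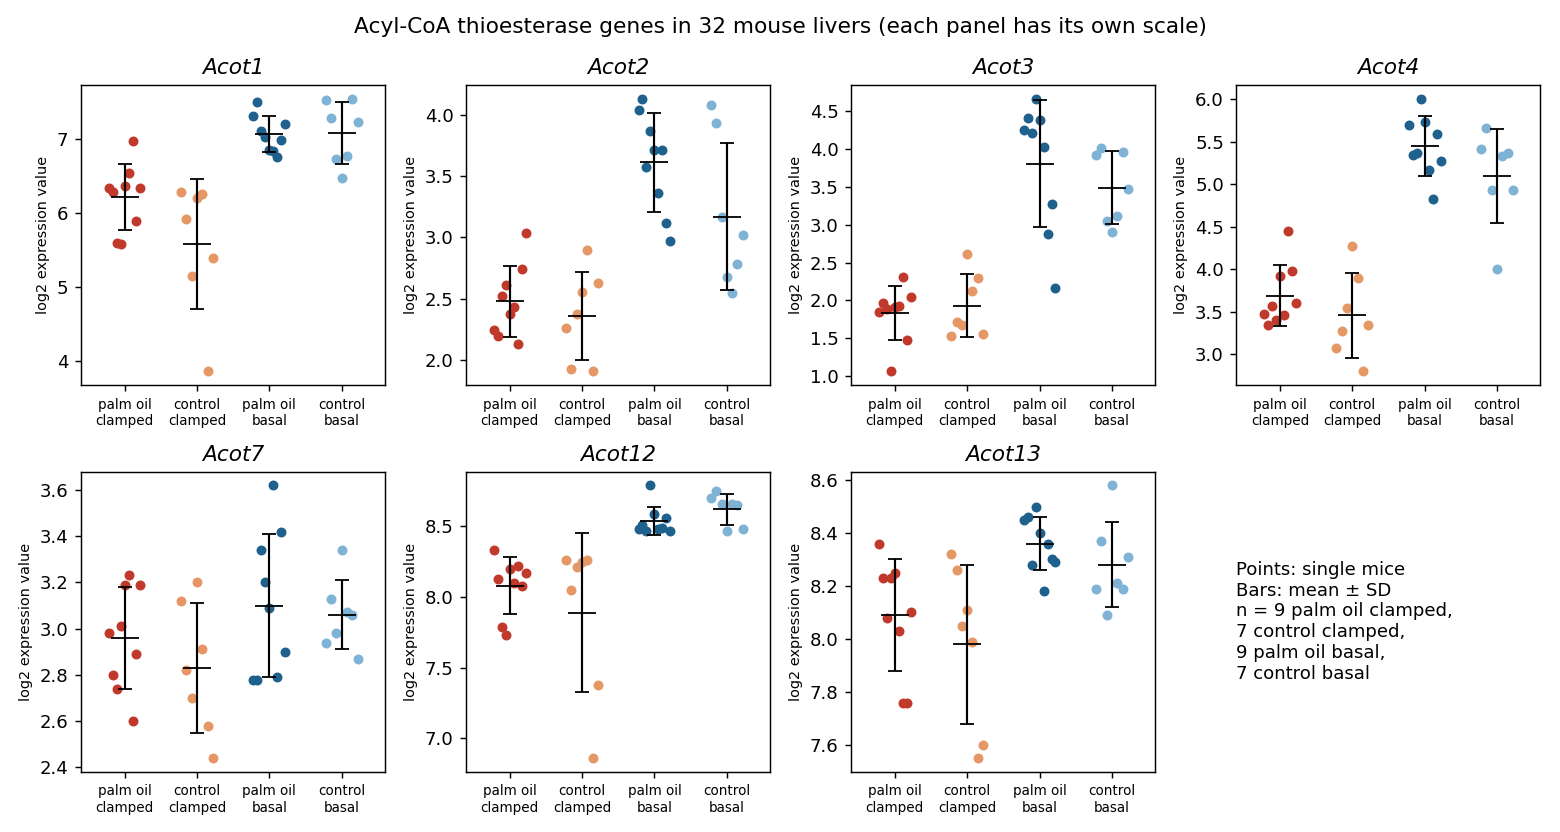
Log2 expression value (vertical axis, own scale in each panel) of the 7 measured genes in each mouse, by group, with bars for mean and SD (n = 9 palm oil clamped, 7 control clamped, 9 palm oil basal and 7 control basal). Acot3 lies between 1.06 and 2.61 in clamped mice and, except for 1 palm oil mouse at 2.16, above 2.8 in basal mice.

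Among the type I genes, Acot4 encodes a peroxisomal thioesterase that in mice acts on succinyl-CoA. Its values ran from 3.35 over a median of 3.57 to 4.45 in palm oil clamped mice, against 4.83, 5.37 and 6.01 in palm oil basal mice. In control mice they were 2.80, 3.34 and 4.28 when clamped, against 4.01, 5.34 and 5.66 when basal. The palm oil groups did not overlap, and in control mice 6 of 7 clamped arrays lay below every basal array. The clamped minus basal difference was -1.76 ± 0.19 in palm oil mice (log2, SE, 3.39-fold lower, limma adjusted p = 6.86e-08) and -1.64 ± 0.22 in control mice (3.12-fold lower, limma adjusted p = 3.53e-06). A further probe set of Acot4, which the choice by mean had left out, gave -1.73 ± 0.22 in palm oil and -1.68 ± 0.25 in control mice (limma adjusted p = 1.07e-06 and 1.61e-05) on the same arrays.

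Acot3, its peroxisomal neighbour, acts on long-chain acyl-CoA in mice. It had values of 1.06, 1.91 and 2.31 (lowest, median, highest) in palm oil clamped mice, against 2.16, 4.21 and 4.67 in palm oil basal mice. In control mice the values were 1.53, 1.71 and 2.61 when clamped, against 2.91, 3.48 and 4.02 when basal. The control groups did not overlap, which held for 2 of the 7 members in palm oil and 3 of 7 in control mice, against 0.586% and 1.16% of all genes with every clamped array below every basal one. In palm oil mice 8 of 9 clamped arrays lay below every basal array. The fall was -1.98 ± 0.25 in palm oil mice (limma adjusted p = 1e-06) and -1.57 ± 0.28 in control mice (limma adjusted p = 2.43e-04). Clamped values lie close to the array medians, in the range where differences are compressed, so no fold is given.

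The size of the Acot3 fall in palm oil mice depended on which basal mice entered. The 3 palm oil basal mice numbered 44 or higher had 2.16 to 3.28, and the other 6 had 4.03 to 4.67. The share of all genes that part in this way was not computed. Values were less spread on those arrays as a whole, and the part of this in the split was not tested. Against the 3 alone the fall was -0.95 ± 0.26 (limma adjusted p = 0.0208), and against the other 6 it was -2.50 ± 0.18 (limma adjusted p = 1.63e-09). In control basal mice the 2 parts overlapped, at 2.91 to 3.96 in the 4 numbered 44 or higher and 3.05 to 4.02 in the other 3, and the falls were -1.44 ± 0.24 and -1.74 ± 0.24.

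Acot1, the cytosolic thioesterase for long-chain acyl-CoA, had 5.58, 6.34 and 6.98 in palm oil clamped mice, against 6.76, 7.03 and 7.51 in palm oil basal mice. Control mice had 3.86, 5.92 and 6.29 when clamped, against 6.48, 7.23 and 7.55 when basal. All 7 control clamped arrays lay below every control basal array, and 8 of 9 palm oil clamped arrays below every palm oil basal one. Acot1 differed by -0.85 ± 0.23 on the log2 scale in palm oil mice (limma adjusted p = 0.0165) and by -1.5 ± 0.26 in control mice (limma adjusted p = 1.68e-04). Without control clamped replicate 6, the mouse at 3.86, the control difference was -1.21. When the 12 arrays with high acinar markers were left out, Acot1 did not pass in palm oil mice (-1.15 ± 0.33, limma adjusted p = 0.0582) or in control mice (-1.01 ± 0.37, limma adjusted p = 0.138).

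Split at animal 44, the palm oil difference of Acot1 was -0.77 ± 0.37 against the 3 basal mice numbered 44 or higher (limma adjusted p = 0.207) and -0.89 ± 0.28 against the other 6 (limma adjusted p = 0.0559). Neither passed, although both lie near the value over all mice.

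Acot2 is the mitochondrial type I member. Its values were 2.13, 2.43 and 3.04 in palm oil clamped mice, against 2.97, 3.71 and 4.13 in palm oil basal mice, and 1.91, 2.38 and 2.90 in control clamped mice, against 2.55, 3.02 and 4.08 in control basal mice. In palm oil mice 8 of 9 clamped arrays lay below every basal array, in control mice 4 of 7. The fall was -1.13 ± 0.19 in palm oil mice (limma adjusted p = 6.58e-05) and -0.81 ± 0.21 in control mice (limma adjusted p = 0.0111). The control value rests on which basal mice enter: it was -0.39 ± 0.19 against the 4 numbered 44 or higher (limma adjusted p = 0.197), -1.36 ± 0.22 against the other 3 (limma adjusted p = 4.13e-04), and -0.44 ± 0.20 when arrays with high acinar markers were left out (limma adjusted p = 0.254).

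Of the type II genes, Acot12, a cytosolic acetyl-CoA hydrolase of liver, fell. It had 7.73, 8.13 and 8.33 in palm oil clamped mice, against 8.47, 8.49 and 8.79 in palm oil basal mice, and 6.86, 8.21 and 8.26 in control clamped mice, against 8.47, 8.66 and 8.75 in control basal mice. Neither pair of groups overlapped. The differences were -0.46 ± 0.13 in palm oil mice (1.37-fold, limma adjusted p = 0.0273) and -0.73 ± 0.15 in control mice (1.66-fold, limma adjusted p = 0.00126).

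The Acot12 fall in palm oil mice kept its size but not its side of the threshold in several settings. It was -0.42 without palm oil basal replicate 4 (limma adjusted p = 0.0569), -0.42 without palm oil clamped replicate 3 (limma adjusted p = 0.0612) and -0.41 without palm oil clamped replicate 4 (limma adjusted p = 0.0643). Leaving out the arrays with high acinar markers, the fall passed neither in palm oil mice (-0.51 ± 0.21, limma adjusted p = 0.247) nor in control mice (-0.76 ± 0.24, limma adjusted p = 0.0752). With the basal mice split at animal 44 the palm oil difference was -0.43 and -0.47 (limma adjusted p = 0.237 and 0.0954). An exact permutation test of the 2 palm oil groups alone, two-sided and unadjusted, gave p = 4.11e-05 for Acot12, the smallest that 48620 regroupings of 9 and 9 mice can give. Groups without overlap always give that smallest value, so the test adds nothing to the separation already stated.

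Acot13 (also called Them2), a thioesterase found with mitochondria that binds the phosphatidylcholine transfer protein, did not pass. Its values were 7.76, 8.10 and 8.36 in palm oil clamped mice, against 8.18, 8.36 and 8.50 in palm oil basal mice, and 7.55, 8.05 and 8.32 in control clamped mice, against 8.09, 8.21 and 8.58 in control basal mice. The groups overlapped in both pairs. Its differences were -0.27 ± 0.10 (95% interval -0.47 to -0.06, limma adjusted p = 0.108) and -0.29 ± 0.11 (-0.52 to -0.06, limma adjusted p = 0.111) in palm oil and control mice. Unadjusted exact permutation tests gave p = 0.00234 and p = 0.0396. Acot7, a cytosolic thioesterase best known from brain, had -0.14 ± 0.12 (-0.38 to 0.10) and -0.23 ± 0.13 (-0.50 to 0.05), and its values of 2.44 to 3.23 in clamped and 2.78 to 3.62 in basal mice overlapped.

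**Figure D2:**
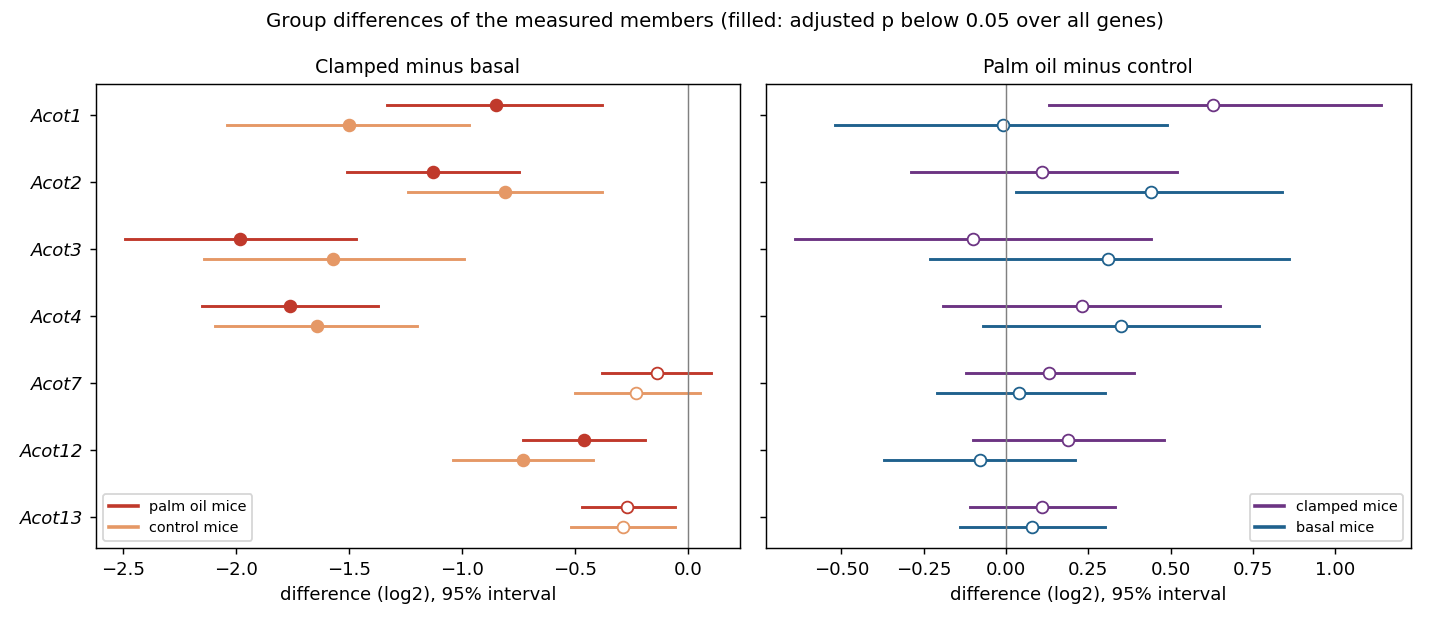
Clamped minus basal (left) and palm oil minus control (right) difference of each measured gene on the log2 scale (horizontal axis), with 95% intervals from limma. Filled points passed an adjusted p of 0.05 over all genes. The 5 genes that fell under the clamp do so in palm oil and in control mice, and no palm oil difference passed.

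The second question was whether palm oil changed the thioesterases. No member differed between palm oil and control mice, clamped or basal, as no gene of all 22180 did (0% called in limma). At an unadjusted p under 0.05 there was 1 member in each comparison, against 3.52% of all genes in clamped and 5.11% in basal mice. In clamped mice this was Acot1, at 6.22 ± 0.45 with palm oil and 5.58 ± 0.88 in controls (SD, n = 9 and 7). The difference was 0.63 ± 0.25 (95% interval 0.13 to 1.14, limma adjusted p = 1), and an exact permutation test, unadjusted, gave p = 0.0676. Of the 9 palm oil clamped mice, 5 lay above every control. Without control clamped replicate 6 the difference was 0.35.

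That control clamped mouse was the lowest of its group for 5 of the 7 members. Besides Acot1 at 3.86 against 5.15 to 6.29 in the other 6, it had Acot12 at 6.86 against 7.38 to 8.26 and Acot4 at 2.80 against 3.08 to 4.28. For Acot2 (1.91 against 1.93 to 2.90) and Acot13 (7.55 against 7.60 to 8.32) it lay just under the next mouse. Acot3 (2.30) and Acot7 (2.58) lay within the range of the others. The share of all genes for which this mouse was the lowest of its group was not computed. Whether the low values are particular to the family was therefore not tested.

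In basal mice the member with an unadjusted p under 0.05 was Acot2, at 3.61 ± 0.40 with palm oil and 3.17 ± 0.60 in controls (SD, n = 9 and 7). Its difference was 0.44 ± 0.20 (95% interval 0.03 to 0.84, limma adjusted p = 0.96, and p = 0.104 by exact permutation, unadjusted). Within animals numbered 44 or higher it was 0.51 ± 0.23 and within the others 0.06 ± 0.22. Acot3 differed by 0.31 ± 0.27, with -0.60 ± 0.30 within animals numbered 44 or higher and 0.66 ± 0.25 within the others, so that the sign turned between the parts. Acot4 differed by 0.35 ± 0.21 and Acot1 by -0.01 ± 0.25.

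Without the arrays high in acinar markers, Acot2 differed by 1.10 ± 0.22 and Acot3 by 1.36 ± 0.24 between palm oil and control basal mice (limma adjusted p = 0.0777 for each). That setting left 4 palm oil basal mice, 0 of them numbered 44 or higher, and 3 control basal mice, 2 of them numbered 44 or higher. The acinar level and the animal number therefore cannot be told apart there.

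The 95% intervals bound what palm oil could have done to these array values. For Acot7, Acot12 and Acot13 they lay between -0.37 and 0.48 in both comparisons. For the 4 type I genes they reached from -0.64 (Acot3, clamped) to 1.14 (Acot1, clamped), so that a 2-fold rise of Acot1 in clamped mice lies inside its interval. They do not cover the change between settings. In basal mice the intervals were 0.03 to 0.84 for Acot2 and -0.23 to 0.86 for Acot3. The estimates without arrays high in acinar markers, 1.10 and 1.36, lay above them. The Acot3 estimate within animals numbered 44 or higher, -0.60, lay below its interval.

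Whether the response to the clamp differed between palm oil and control mice was tested as an interaction, and no member passed (0% of all genes called in limma, and 0 members at an unadjusted p under 0.05, against 3.49% of all genes). Acot1 had 0.65 ± 0.35 over all arrays (95% interval -0.07 to 1.36, limma adjusted p = 1), and 0.36 ± 0.28 without control clamped replicate 6. The others ran between -0.41 ± 0.38 for Acot3 and 0.27 ± 0.20 for Acot12, and without that mouse Acot12 had 0.10 ± 0.15. The Acot3 interaction was 0.50 ± 0.36 with the basal mice limited to animals numbered 44 or higher and -0.76 ± 0.30 without those. When arrays with high acinar markers were left out, it was -1.61 ± 0.30 for Acot3, -1.02 ± 0.27 for Acot2 and -0.14 ± 0.50 for Acot1 (limma adjusted p = 0.348, 0.528 and 0.973). For each of the 5 genes that fell, both clamped group means lay below both basal group means. These genes had been called lower in both comparisons, so that order of means adds little. Single clamped and basal arrays, taken over both gavages, overlapped for each of the 5 genes except Acot12. The share of all genes with either pattern was not computed. Palm oil and control mice in the same state did not differ past the threshold, which does not show that their levels are equal.

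Of the relatives outside the list, none passed in the downward direction. Of 15 other thioesterases measured, 1 rose, the same gene in mice of either gavage, and none fell, while their median difference was -0.03 in palm oil and 0.03 in control mice. Of all genes 3.76% rose and 3.80% fell in palm oil mice, and 4.66% rose and 4.09% fell in control mice. Counts this small in 15 genes therefore say little about the list. The riser was Baat, which joins bile acids to amino acids and is built like the type I thioesterases (0.32 ± 0.10 in palm oil and 0.40 ± 0.11 in control mice, limma adjusted p = 0.0487 and 0.0226). The remaining measured Acot genes are named here although outside the naming rule, after their values were seen. Acot6, next to Acot5 in the chromosome 12 cluster, differed by -0.44 ± 0.15 in palm oil mice (limma adjusted p = 0.0765) and 0.05 ± 0.17 in control mice. Acot5 differed by 0.11 ± 0.11 and -0.08 ± 0.13, Acot9, a mitochondrial member, by 0.11 ± 0.26 and 0.31 ± 0.29, and Acot11, known from brown fat, by -0.19 ± 0.13 and -0.14 ± 0.15. Acot10 differed by 0.06 ± 0.17 in palm oil and 0.22 ± 0.19 in control mice, with group means of 2.40 to 2.67. The group means of Acot5, Acot6, Acot9 and Acot11 lay between 0.92 and 2.01, where a change would be compressed.

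Acyl-CoA synthetases, which make what thioesterases split, were counted as a list of 23, of which Acsl1, Acsl3 and Acsm3 had no value. Of 20 measured, 2 fell and 1 rose in palm oil mice, and 2 fell in control mice (median -0.14 and -0.08). Of all genes 7.57% were called in palm oil mice (3.80% lower) and 8.75% in control mice (4.09% lower), so such small counts say little about the list. Acsm5, a medium-chain enzyme of mitochondria, fell in both (-0.63 ± 0.20 in palm oil and -1.15 ± 0.22 in control mice, limma adjusted p = 0.0401 and 5.58e-04). Acsl4, which favours arachidonic acid, rose in palm oil mice (0.54 ± 0.15, limma adjusted p = 0.0165) and had 0.49 ± 0.17 in control mice (limma adjusted p = 0.0593).

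Peroxisomal beta-oxidation genes, the pathway in the compartment of Acot3 and Acot4, fell for 9 of 17 measured members in palm oil and 11 of 17 in control mice, with none rising and medians of -0.48 and -0.51. Among them were Crat, the carnitine acetyltransferase (-0.85 ± 0.10 in palm oil and -0.88 ± 0.11 in control mice, limma adjusted p = 3.68e-07 and 2.38e-06), and the thiolase Acaa1b (-1.11 ± 0.17 and -1.03 ± 0.20 in the same order, limma adjusted p = 3e-05 and 4.46e-04). Mitochondrial beta-oxidation genes fell for 6 of 19 in palm oil and 8 of 19 in control mice (medians -0.16 and -0.30), such as Decr1, an auxiliary enzyme for unsaturated fatty acids (-0.48 ± 0.09 in palm oil and -0.58 ± 0.11 in control mice, limma adjusted p = 6.39e-04 and 2.80e-04).

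PPARA and its targets outside the family fell for 9 of 20 and rose for 1 in palm oil and likewise in control mice (medians -0.41 and -0.37). Ppara itself fell, with -0.54 ± 0.10 in palm oil and -0.44 ± 0.11 in control mice on the log2 scale (limma adjusted p = 1.7e-04 and 0.00681). The lipase inhibitor G0s2 had -2.95 ± 0.17 in palm oil and -2.91 ± 0.19 in control mice (limma adjusted p = 2.11e-14 and 1.45e-12), and Pdk4, which restrains pyruvate dehydrogenase, was the riser, named after its values were seen (0.69 ± 0.22 and 1.04 ± 0.25 in the same order, limma adjusted p = 0.0478 and 0.0058). Genes that make, carry or break down coenzyme A fell for 3 of 15 in palm oil and 7 of 15 in control mice (medians -0.30 and -0.45). Slc25a42, which brings coenzyme A into mitochondria, had -0.70 ± 0.12 in palm oil and -0.91 ± 0.13 in control mice (limma adjusted p = 1.09e-04 and 1.62e-05), and Nudt7, a coenzyme A hydrolase of peroxisomes, -0.60 ± 0.16 and -0.75 ± 0.19 (limma adjusted p = 0.0165 and 0.00716). These lists share members with each other and were written with earlier results of the arrays known. Of all genes 3.80% fell in palm oil mice and 4.09% in control mice.

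**Figure D3:**
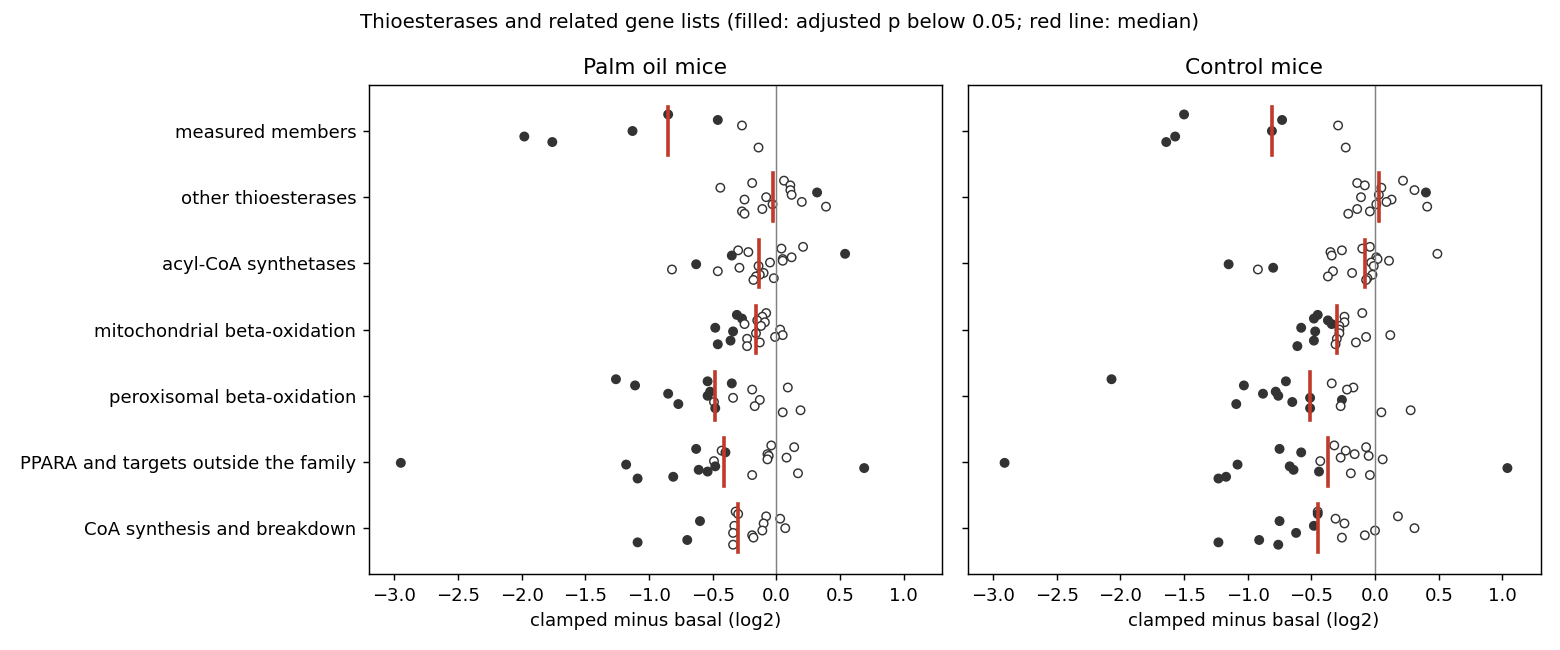
Clamped minus basal difference on the log2 scale (horizontal axis) of each measured gene, in palm oil mice (left) and control mice (right), for the 7 members and 6 related lists. Filled points passed an adjusted p of 0.05, and red lines are medians. The members' medians are -0.85 and -0.81, and those of the other thioesterases -0.03 and 0.03.

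Within groups, the members did not form a single block. After subtracting group means, the 21 pairs had a median Pearson r of 0.26 over the 32 arrays (range -0.13 to 0.75), given as a description, since all points share arrays and, on chromosome 12, similar sequence. Among the 4 type I genes r ran from 0.26 (Acot1 with Acot2 and with Acot3) to 0.53 (Acot1 with Acot4, Spearman rho 0.42). The highest Pearson r joined genes on different chromosomes, Acot1 and Acot12 (r 0.75, rho 0.55), and was 0.51 without control clamped replicate 6. That ranking rested on this mouse. By rho, and by r without it, the chromosome 12 neighbours Acot3 and Acot4 were highest (0.60 and 0.59). Acot13 had 0.54 with Acot12 and -0.13 with Acot4, and its r with Acot12 was 0.22 without the 2 arrays farthest from the median.

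**Figure D4:**
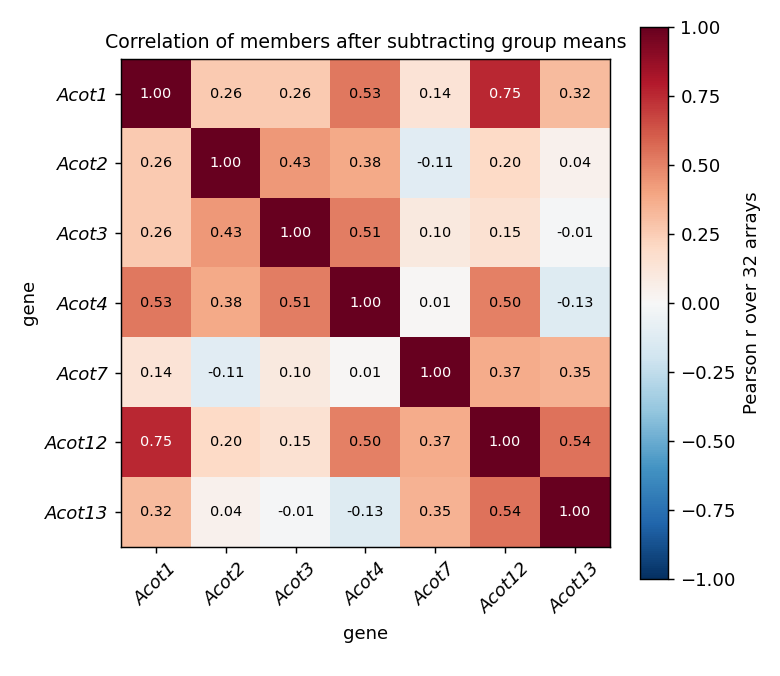
Pearson r between each pair of measured genes (both axes) over 32 arrays after subtracting group means, as colour and number. Acot1 and Acot12 have 0.75, Acot3 and Acot4 0.51, and Acot4 and Acot13 -0.13.

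The genes whose within-group pattern was most like a member's differed from member to member. They were chosen as the 3 with the highest r after subtracting group means, leaving out the members, predicted genes and small RNAs. Being the highest among all remaining genes, these r are large by selection. The level that unrelated genes would reach was not computed, so the genes are listed as a description. For Acot4 these were Me1, the cytosolic malic enzyme (r 0.83, rho 0.76), Mlxipl, a carbohydrate-responsive transcription factor (r 0.76, rho 0.79), and Dennd11 (r 0.70). For Acot12 they were Bbox1, the last enzyme of carnitine synthesis (r 0.92, rho 0.81), Reep6 (r 0.91) and Coq8a (r 0.90), which had 0.83, 0.81 and 0.82 without control clamped replicate 6. For Acot1 they were Fads2, a fatty acid desaturase (r 0.82, rho 0.69), Igfals (r 0.80) and Abcb4, the phospholipid transporter of bile (r 0.79), with 0.65, 0.61 and 0.61 without that mouse.

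Acot2 was most like Hnrnpdl (r 0.80), Kpna4 (r 0.75) and Ces1c (r 0.74), and Acot3 like Klhl7 (r 0.75), Rab18 (r 0.75) and Tmtc3 (r 0.74). Without the 7 basal arrays numbered 44 or higher r was 0.63, 0.50 and 0.59 for Acot2 and 0.49, 0.32 and 0.30 for Acot3, while Me1 had 0.83 with Acot4. Acot13 was most like Acy3 (r 0.82), Trmt2b (r 0.81) and Aqp11 (r 0.80), and Acot7 like Cd99l2 (r 0.66), Tmem204 (r 0.65) and Abhd10 (r 0.63).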

How the data were processed

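Liver RNA was extracted on miRNeasy columns with DNase treatment, amplified, labelled with biotin and hybridised, per the labels' protocols. The table holds deposited log2 expression values. Per the submitters' processing notes, the tool was Expression Console 1.3.0.187 and the method RMA, which corrects background, normalizes arrays to each other and combines probes. Values were used as deposited. The genome build is not given in the sources used here.

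The table held 41345 probe sets, of which a platform annotation gave 23521 a single symbol, 1814 several and 16010 none. The probe set with the highest mean was kept per symbol (22180 genes). The 7 measured members matched the reference gene table by Entrez identifier and symbol, and promoters of 7 of the 8 listed genes were found. Groups came from titles. limma 3.58.1 (lmFit and eBayes, R 4.3.3) was fitted to all 32 arrays with 1 mean per group (28 residual degrees of freedom), with Benjamini-Hochberg adjustment over all genes and a threshold of 0.05. Values after ± are standard errors unless marked SD.

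All members are named. Related lists were counted, with up to 3 members of smallest p open to naming. Members, lists, tests and alternatives were chosen with earlier results of these data known. On simulated data with 22180 genes and 200 changed, limma recovered 97.6% of 2-fold and 67.6% of 1.5-fold changes for clamped minus basal in palm oil mice (6.1% false calls), and 94.4% and 57% in control mice (4.86% false). The changed genes were drawn only from those above the median mean level of 1.83. Deviations from group means were shuffled among the arrays, which unties the acinar and animal number differences from the groups. Recovery for dim genes such as Acot2, Acot3 and Acot7 was not measured apart.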

Additional observations from a re-analysis of the deposited data

Results flagged for a closer look

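Palm oil basal replicate 4 stood apart from its group for Acot12, at 8.79 against 8.59 for the next mouse. It was the only one of 28 sets of values (7 genes in 4 groups) whose end value lay farther from the rest than Dixon's 95% limit, and chance gives about 1 in 20.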

How the results depend on the processing

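Without the 12 arrays high in acinar markers, 3 members (Acot2, Acot3 and Acot4) were called for clamped minus basal in palm oil mice and 2 (Acot3 and Acot4) in control mice, against 5 in each over all arrays; over all genes 736 and 993 were called, against 1678 and 1940. In palm oil mice 3 members (Acot2, Acot3 and Acot4) were called with the basal mice limited to those numbered 44 or higher, and 3 without those. Over all genes 9.83% (4.20% lower) and 5.82% (3.43% lower) were called in these 2 settings. Leaving out each array in turn, 4 to 5 members were called in palm oil mice and 5 in control mice every time, and 0 for either palm oil comparison and the interaction. Over all genes 6.24% to 8.11% were called in palm oil mice and 6.84% to 9.05% in control mice. For the palm oil comparisons and the interaction it was at most 0.00451%. With the replicate number as a block, the counts were 5, 5, 0, 0 and 0, and no call of a member changed. Over all genes 7.34% were then called in palm oil mice, 8.67% in control mice and 0% in the other comparisons. Among same-numbered pairs of mice, 9 of 44 had a correlation of deviations over 0.1 (range -0.23 to 0.29). Differently numbered pairs were not computed, so these values cannot show whether replicate numbers pair the mice. Fitting the compared groups alone, Acot2 did not pass in control mice (-0.81, limma adjusted p = 0.0512), and with the acinar level as a term Acot12 did not pass in palm oil mice (-0.44, limma adjusted p = 0.0723). Of 616 member values recomputed under settings other than leaving out 1 array, 602 kept their side of the threshold. Of the rest, 12 lost and 2 gained a call, and 0 called values turned sign. The 2 gains are Acot13 under the unadjusted permutation test. Of 1120 values with 1 array left out, 3 lost a call, all of them Acot12 in palm oil mice. Over all arrays, 5 of 7 members were called in each clamped minus basal comparison and 0 in the other comparisons. Most of the 616 and 1120 values therefore had no call to lose, and these totals do not measure how stable the calls are. The cause of these changes was not tested. Other scalings moved the median of all genes by at most 0.03. The number of mice and the dim signal of Acot2, Acot3 and Acot7 limit what can be seen.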
